A study of Mus musculus with 4 samples.

Results

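The genes described here encode the regulators and early transcriptional outputs of the Ras-ERK cascade, measured on arrays of adult mouse mesoangioblasts (AdmMABs) with and without silencing of PW1. A list of 55 genes was taken by name, with earlier results of these data known. It holds the exchange factors, GTPase activating proteins, GTPases and kinases of the cascade. It also holds the Dusp, Sprouty and Spred inhibitors, and the Etv, Fos, Jun, Egr and Ier genes. A gene counted as measured where the array annotation gave a probe set its symbol and no other, and its brightest probe set over the 4 arrays stood for it. Of the 55 genes 53 were measured, among 19938 genes on the array, while Hras and Mapk3 had no such probe set and are not analysed here. AdmMABs are vessel-associated progenitors, here from the tibialis anterior muscle of adult male C57/BL6 mice and grown as a polyclonal population in medium with 20% serum. Proliferating cells carried a lentiviral short hairpin RNA against PW1 (shPW1 AdmMABs, 2 RNA extractions) or a lentiviral short hairpin RNA that matches no mouse gene (Ctl AdmMABs, 2 RNA extractions), and each extraction was hybridized to 1 array. Both replicates of a group came from 1 transduced population. The p-values therefore rest on the scatter among repeat extractions, which can be purely technical. PW1 was targeted with 1 hairpin, in another vector than the control hairpin that the methods name. The vector in the hybridized Ctl cells is left unsaid, so any difference of vector and the loss of PW1 cannot be told apart.

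Ras GTPases are switched on by exchange factors, which load them with GTP, and switched off by GTPase activating proteins. Active Ras recruits Raf kinases, which phosphorylate MEK (Map2k1 and Map2k2), and MEK phosphorylates ERK. In the nucleus ERK signalling induces immediate early transcription factors such as Fos and Egr1 without new protein synthesis, and it also induces its own inhibitors, among them dual specificity phosphatases (Dusp), which dephosphorylate ERK and related kinases, and Sprouty proteins, which act upstream at the level of receptors and Ras. In muscle progenitors the cascade is known for its part in proliferation and in the delay of differentiation. Arrays measure transcripts, and phosphorylation of ERK is outside these data.

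PW1 is encoded by Peg3, and its transcript was low in both shPW1 arrays. Expression is given throughout as the log2 value of the authors' RMA normalization, and Peg3 read 6.22 and 6.47 in shPW1 AdmMABs, against 8.67 and 8.70 in Ctl AdmMABs. It fell by 2.34 (95% confidence interval -2.60 to -2.08, adjusted p = 0.00428 by limma). The array medians lay between 5.40 and 5.49, and the SD of the differences between replicates was 0.17 for shPW1 and 0.15 for Ctl. Markers listed for the labelled cell type were partly present: Pdgfrb, a mural cell receptor, was bright at 10.36 and 10.33 in shPW1 and 10.81 and 10.78 in Ctl, whereas the pericyte gene Rgs5 was dim at 3.79 in both shPW1 arrays and 3.70 in both Ctl arrays. Alpl, which encodes alkaline phosphatase, read 5.79 and 5.73 in shPW1 and 5.75 and 5.95 in Ctl. Of 9 measured progenitor markers 0 were higher and 5 were lower in shPW1 (55.6%), where 4.93% of all genes tested were called higher and 4.35% lower. Anpep fell by 1.06 (adjusted p = 0.00576 by limma) and Cspg4 by 0.66 (adjusted p = 0.0174 by limma). The other markers called lower were Pdgfrb, Pdgfra and Mcam. The summed linear level of the 9 markers was 12216 to 12621 in shPW1 and 12119 to 12274 in Ctl, most of it from the smooth muscle actin gene Acta2. Without Acta2 the other 8 summed to 2336 and 2306 in shPW1, against 3151 and 3138 in Ctl. Of 6 myogenic markers 0 were higher and 3 were lower (50%), namely Myod1, Cdh15 and Des. The summed linear level of the 6 was 2055 and 2073 in shPW1, against 3019 and 2956 in Ctl. No endothelial marker of 8 and no leukocyte marker of 10 was called in either direction by limma or by the methods' analysis of variance, and at an unadjusted p under 0.05 the counts were 0 and 0 for endothelial markers and 0 higher and 1 lower for leukocyte markers, where 13.9% of all genes were higher and 13.9% lower. Their summed linear levels were 241 to 262 and 282 to 303 in shPW1, against 259 to 261 and 282 to 301 in Ctl. In bulk RNA fewer cells of a type and less RNA per cell cannot be told apart, and the part of the lower progenitor and myogenic markers in the results that follow was not tested.

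Genes of the module were called higher in shPW1 AdmMABs more often than genes of the array at large. The list was chosen with earlier results of these data known, so this excess is a description and not evidence about the module. At an adjusted p under 0.05 by limma, 17 of the 53 measured genes were higher (32.1%) and 1 was lower (1.89%), whereas 4.93% of all genes tested were higher and 4.35% were lower. The higher genes were spread over most roles: 5 Dusp phosphatases, 3 of the Ier group with Phlda1, 2 GTPases, 2 Etv factors, 2 Fos-related factors, and 1 each of the exchange factors, the GTPase activating proteins and the Sprouty proteins. No kinase of the cascade and no Egr factor was called. The changes called higher were mostly modest, between 1.27-fold and 3.74-fold with a median of 1.53-fold, and 3 genes, Rasgrp3, Dusp9 and Ier3, changed at least 2-fold. Fos, the best known immediate early gene of the list, was the 1 gene called lower.

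Counts without a test, and counts by other thresholds, come from the same 4 arrays and the same list, so they are not separate evidence. Both shPW1 arrays lay above both Ctl arrays for 28 of the 53 genes (52.8%), against 27% of all genes tested, and below them for 6 (11.3%), against 28.5% of all genes tested. The arrays of the groups overlapped for the other 19. Over the 53 genes the median difference between shPW1 and Ctl was 0.11 on the log2 scale, against -0.01 over all genes tested, and the differences ran between -0.44 and 1.90. The 35 genes not called had a median difference of -0.00 and lay between -0.31 and 0.35. The analysis of variance of the study's methods, at an unadjusted p under 0.05 and a fold change over 1.2, gave 18 genes higher and 1 lower, against 6.35% and 5.55% of all genes. At an unadjusted p under 0.05 by limma 25 were higher and 2 lower, against 13.9% of all genes in each direction. With any 1 of the 4 arrays left out 0 genes of the list passed the adjusted threshold, and 0 passed with all 35556 rows of the table tested, although the 18 called genes kept their sign in every alternative.

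**Figure D1:**
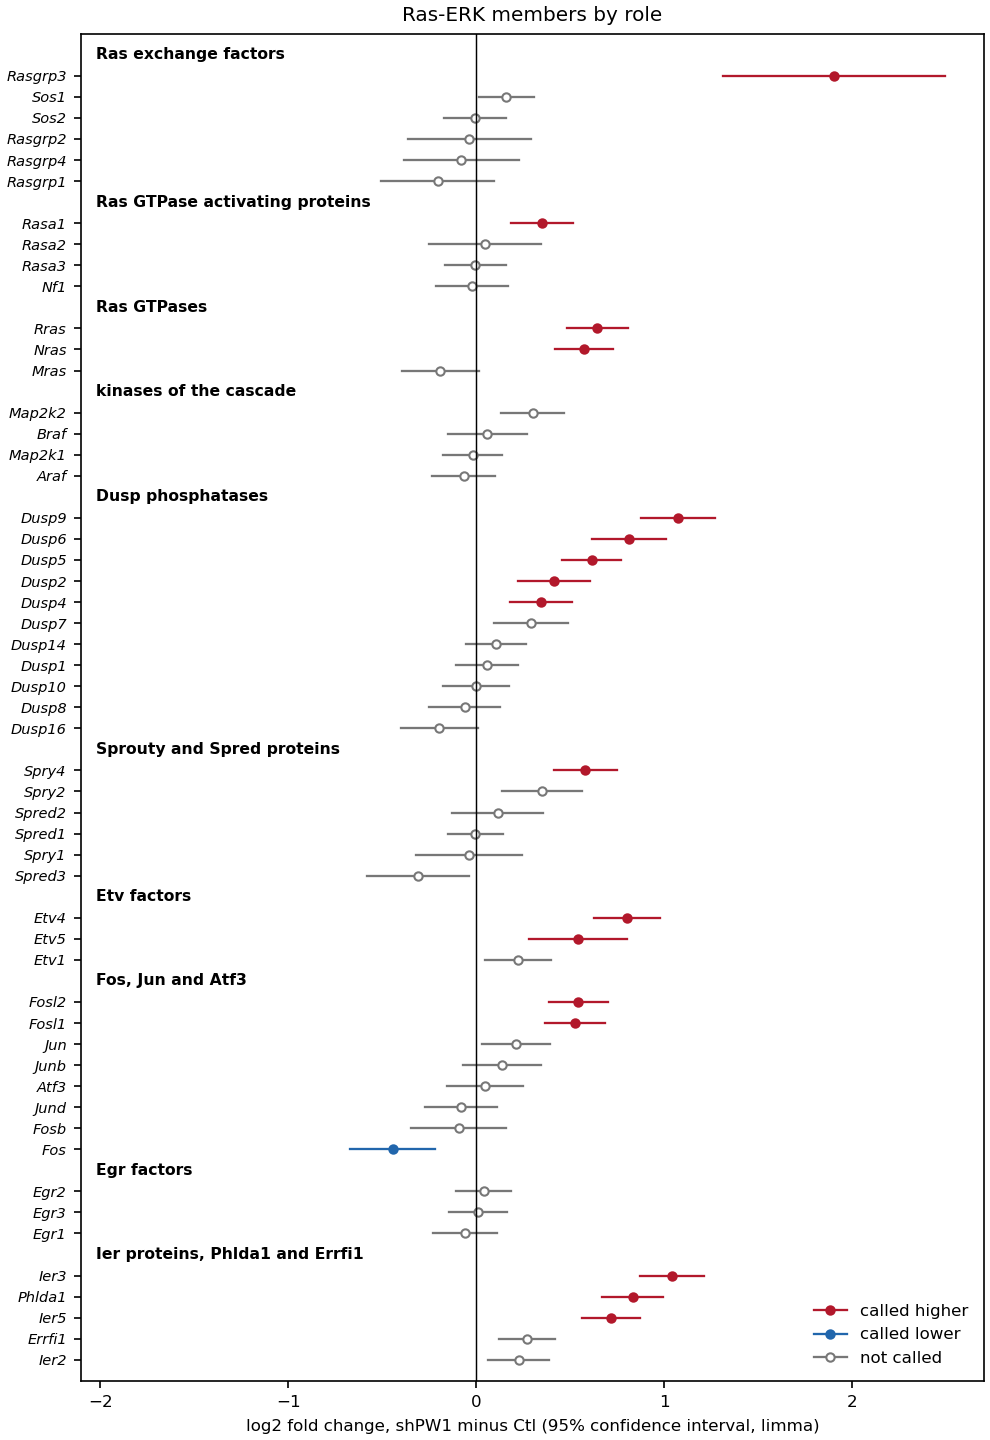
Difference in log2 expression, shPW1 minus Ctl (horizontal axis), for the 53 measured genes grouped by role (vertical axis), with bars for the 95% confidence interval by limma over 2 shPW1 and 2 Ctl arrays. Filled red points are the 17 genes called higher, the filled blue point is Fos, called lower at -0.44, and open points are the 35 genes not called; Rasgrp3 lies farthest to the right at 1.90 and the 3 Egr factors lie close to 0.

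Among the 6 exchange factors, which activate Ras, Rasgrp3 alone was called, as higher (16.7%, against 4.93% of all genes tested). It encodes a factor that is recruited to membranes by diacylglycerol and acts on Ras and on Rap. Rasgrp3 read 5.17 and 5.63 in shPW1 AdmMABs, against 3.25 and 3.74 in Ctl AdmMABs. Both shPW1 values were above both Ctl values, with a gap wider than the distance between the arrays of either group. The difference was 1.90 on the log2 scale (95% confidence interval 1.31 to 2.49), or 3.74-fold, at an adjusted p = 0.0198 by limma. Its Ctl mean, 3.50, lay under the log2 level of 5 taken here as dim, and no detection call was available, so the size of this change is uncertain. Rasgrp1, known for its part in T cells, read 4.49 and 4.18 in shPW1 and 4.56 and 4.52 in Ctl, both dim, with an adjusted p = 0.332. Rasgrp2 was dim too, with a difference of -0.04. Rasgrp4 read 5.42 and 5.12 in shPW1 and 5.38 and 5.31 in Ctl, which overlap, and differed by -0.08. Sos1, the exchange factor that Grb2 brings to activated receptors, read 7.96 and 7.97 in shPW1 and 7.81 and 7.80 in Ctl. Those groups did not overlap, yet the difference of 0.16 had an adjusted p = 0.156, and the difference of Sos2 was -0.00. The median over the 6 exchange factors was -0.02.

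GTPase activating proteins and the GTPases themselves showed 3 higher genes between them. These were 1 of 4 GTPase activating proteins (25%) and 2 of 3 GTPases (66.7%), against 4.93% of all genes tested. Rasa1 encodes the p120 protein that turns Ras off at activated receptors. It read 9.76 and 9.84 in shPW1 AdmMABs and 9.46 and 9.43 in Ctl AdmMABs, so that both shPW1 arrays were above both Ctl arrays. The difference was 0.35 (95% confidence interval 0.19 to 0.52), with an adjusted p = 0.0399 by limma. Rasa2, Rasa3 and Nf1, which encodes neurofibromin, had differences of 0.05, -0.00 and -0.02, and their arrays overlapped. Nras encodes a canonical activator of Raf. Its values were 10.40 and 10.35 in shPW1 and 9.79 and 9.82 in Ctl, without overlap. This is a difference of 0.57 (95% confidence interval 0.42 to 0.73) or 1.49-fold (adjusted p = 0.0151). Rras, a relative known for its action on integrins, read 9.94 and 9.99 in shPW1 and 9.29 and 9.35 in Ctl. Again the groups were apart, by 0.65 (95% confidence interval 0.48 to 0.81) or 1.56-fold (adjusted p = 0.0131). Mras, which acts with Shoc2 on Raf, read 7.08 and 6.96 in shPW1 and 7.27 and 7.16 in Ctl. Its difference of -0.19 (95% confidence interval -0.40 to 0.01) had an adjusted p = 0.204.

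Of the 4 measured kinases of the cascade 0 were called in either direction by limma, which called 4.93% of all genes tested higher and 4.35% lower. At an unadjusted p under 0.05, where 13.9% of all genes were higher, 1 of the 4 was higher. The methods' analysis of variance, by which 6.35% of all genes were higher, called the same 1 gene. That gene was Map2k2, which encodes a MEK kinase. It read 8.96 and 9.03 in shPW1 AdmMABs, against 8.66 and 8.73 in Ctl AdmMABs, without overlap between the groups. The difference was 0.30 (95% confidence interval 0.13 to 0.47) and its adjusted p = 0.0584 lay just outside the threshold. Map2k1, the other MEK gene, differed by -0.02, Braf by 0.06 and Araf by -0.07. The intervals of these 3 Raf and MEK genes all held 0.

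The Dusp phosphatases held the most called genes of any role. Of 11 genes 5 were higher (45.5%) and 0 were lower, against 4.93% and 4.35% of all genes tested. The median difference was 0.29, against -0.01 over all genes. Dusp6, Dusp7 and Dusp9 encode the cytoplasmic phosphatases that act mainly on ERK. Dusp9 read 8.34 and 8.50 in shPW1 AdmMABs and 7.35 and 7.34 in Ctl AdmMABs. The groups were well apart, with a difference of 1.07 (95% confidence interval 0.88 to 1.27), that is 2.10-fold, at an adjusted p = 0.00742 by limma. Dusp6, a widely used readout of ERK signalling, read 10.11 and 10.26 in shPW1 and 9.39 and 9.35 in Ctl. Both shPW1 arrays were high, and the difference was 0.81 (95% confidence interval 0.62 to 1.01) or 1.76-fold (adjusted p = 0.0124). Dusp7 read 8.65 and 8.73 in shPW1 and 8.46 and 8.33 in Ctl. Its groups did not overlap either, but its difference of 0.29 was not called (adjusted p = 0.0863).

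The nuclear, inducible phosphatases behaved unequally. Dusp5, which is selective for ERK, read 8.35 and 8.32 in shPW1 AdmMABs and 7.75 and 7.69 in Ctl AdmMABs. The arrays of each group were close together and the groups were apart, by 0.61 (95% confidence interval 0.46 to 0.77) or 1.53-fold (adjusted p = 0.0136). Dusp2 read 6.69 and 6.81 in shPW1 and 6.38 and 6.29 in Ctl, a difference of 0.41 (adjusted p = 0.0396). Dusp4 read 9.34 and 9.43 in shPW1 and 9.04 in both Ctl arrays, a difference of 0.35 (adjusted p = 0.0427). Neither of these 2 genes had overlapping groups, and their values of 1.33-fold and 1.27-fold were among the smallest changes called. Dusp1, the phosphatase best known as an immediate early gene, read 9.42 and 9.46 in shPW1 and 9.43 and 9.34 in Ctl, which overlap. Its difference of 0.06 had a 95% confidence interval of -0.11 to 0.22. Of the phosphatases that prefer JNK and p38, Dusp10 differed by -0.00 and Dusp16 by -0.20 (7.33 and 7.47 in shPW1, 7.65 and 7.55 in Ctl, adjusted p = 0.201). Dusp8 had a pair of probe sets that disagreed, the brighter at -0.06 and the dimmer at 0.34, and neither was called. The atypical member Dusp14 differed by 0.11.

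**Figure D2:**
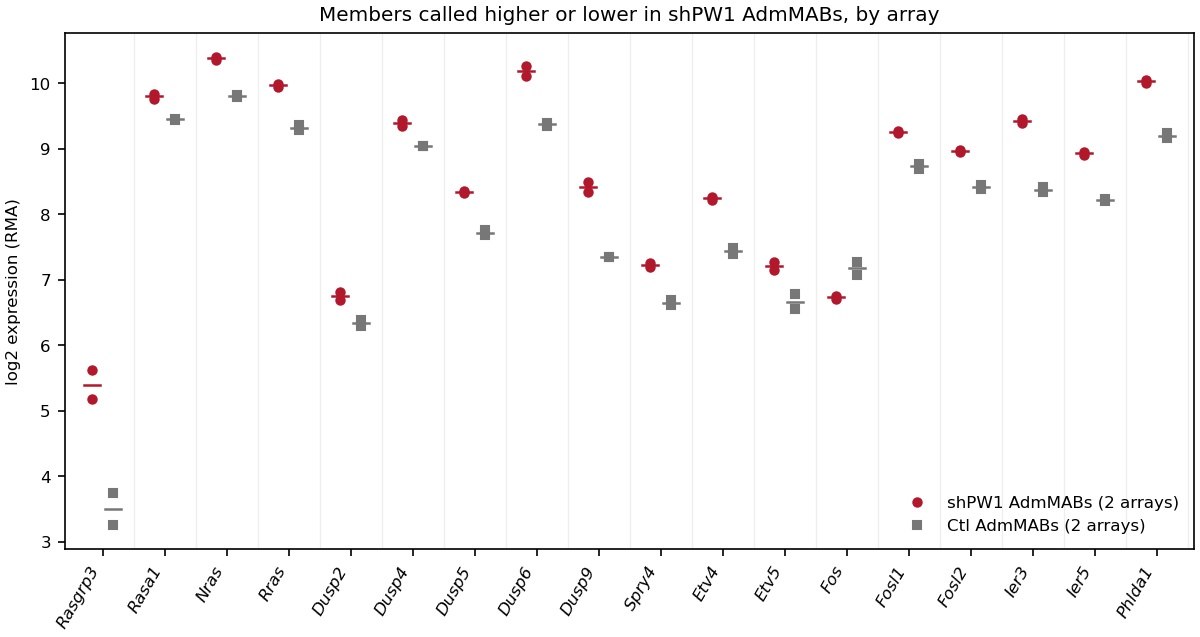
Log2 expression by RMA (vertical axis) of the 18 called genes (horizontal axis), with a red circle for each of the 2 shPW1 arrays, a grey square for each of the 2 Ctl arrays and a short line for each group mean. The arrays of the groups overlap for no gene, but the genes were chosen by a test on these same values, which favours such a result. Fos is the only gene with its Ctl arrays on top, and Rasgrp3 is the only one with a Ctl mean, 3.50, below 5.

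The promoters of Dusp5, called higher, and Dusp1, not called, are shown because the genes are both nuclear Dusp phosphatases and hold different motifs in front of their start sites. RefSeq sequence of GRCm38.p6 covered 43 of the 53 measured genes, among them 11 of the 17 called higher, in windows of 250 bases before and 50 after each start. The 250 bases before the start are printed in the direction of the gene, and bases are counted backwards from the start, the base next to it being -1. Dusp5 lies on the plus strand (chr19:53528895-53529144) and holds a pair of adjoining CArG boxes, the sites bound by serum response factor, beginning at -82 and -72 and printed in capitals.
Dusp5: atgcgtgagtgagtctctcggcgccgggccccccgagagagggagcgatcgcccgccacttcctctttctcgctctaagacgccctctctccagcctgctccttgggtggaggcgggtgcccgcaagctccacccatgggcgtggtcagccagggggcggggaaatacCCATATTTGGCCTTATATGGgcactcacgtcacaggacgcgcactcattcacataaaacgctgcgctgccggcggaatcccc
Dusp1 lies on the minus strand (chr17:26508473-26508722) and holds a cAMP response element, TGACGTCA, beginning at -143 and in capitals.
Dusp1: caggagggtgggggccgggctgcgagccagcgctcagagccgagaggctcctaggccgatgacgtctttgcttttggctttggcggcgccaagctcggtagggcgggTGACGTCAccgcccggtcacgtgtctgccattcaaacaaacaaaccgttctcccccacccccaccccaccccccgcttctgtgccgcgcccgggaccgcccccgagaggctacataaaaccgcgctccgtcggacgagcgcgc
The search read both strands. Shares are given per window and counts per gene with any match, and the 43 genes have 54 windows. The shares and counts are therefore unlike measures. A CArG box was found in 1.63% of the 32851 promoter windows of the table and in 2 of the 43 genes, Dusp5 and Egr2. The cAMP response element was found in 1.79% of windows and in 4 of the 43 genes, Braf, Dusp1, Dusp8 and Errfi1, none of them called. A match of this kind is a description of the sequence and does not show that a factor binds there.

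Of the 6 Sprouty and Spred genes 1 was called, as higher (16.7%, against 4.93% of all genes tested). Sprouty proteins are induced by receptor signalling and restrain Ras activation, and Spred proteins bind neurofibromin. Spry4 read 7.19 and 7.26 in shPW1 AdmMABs, against 6.68 and 6.61 in Ctl AdmMABs. Both shPW1 arrays were higher, by 0.58 on average (95% confidence interval 0.41 to 0.75) or 1.50-fold, with an adjusted p = 0.0179 by limma. Spry2 read 8.61 and 8.49 in shPW1 and 8.27 and 8.13 in Ctl. Its groups did not overlap, but the difference of 0.35 (95% confidence interval 0.14 to 0.56) had an adjusted p = 0.0686. Spry1 differed by -0.04, Spred1 by -0.00 and Spred2 by 0.11. Spred3 had the lowest difference among the genes not called, -0.31 (6.01 and 5.75 in shPW1, 6.17 and 6.21 in Ctl, adjusted p = 0.145).

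Etv1, Etv4 and Etv5 encode related Ets factors that respond to fibroblast growth factor and ERK signalling. All 3 had both shPW1 arrays above both Ctl arrays, as had 27% of all genes tested. Of the 3 genes 2 were called higher, against 4.93% of all genes tested. Etv4 read 8.22 and 8.26 in shPW1 AdmMABs and 7.49 and 7.39 in Ctl AdmMABs. The gap between the groups was 0.80 (95% confidence interval 0.63 to 0.98) or 1.74-fold (adjusted p = 0.0102). Etv5 read 7.15 and 7.26 in shPW1 and 6.55 and 6.78 in Ctl. Here the Ctl arrays lay further apart, and the difference was 0.54 (95% confidence interval 0.28 to 0.80, adjusted p = 0.0427). Its dimmer probe set gave 0.47 with an adjusted p = 0.0311. Etv1 read 5.77 and 5.87 in shPW1 and 5.58 and 5.62 in Ctl, a difference of 0.22 that was not called (adjusted p = 0.121), and its dimmer probe set gave -0.12. The brighter probe set of Etv5 was the 1 called gene that the methods' analysis of variance did not call.

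The AP-1 genes moved in both directions. Fosl1 and Fosl2 encode Fos-related partners of Jun that last longer after stimulation than Fos itself. Fosl1 read 9.24 and 9.27 in shPW1 AdmMABs, against 8.76 and 8.69 in Ctl AdmMABs. Fosl2 read 8.98 and 8.95 in shPW1, against 8.45 and 8.39 in Ctl. In both genes the shPW1 arrays were on top, by 0.53 (95% confidence interval 0.37 to 0.69, adjusted p = 0.0189) for Fosl1 and by 0.54 (95% confidence interval 0.39 to 0.70, adjusted p = 0.0179) for Fosl2. Fos read 6.76 and 6.71 in shPW1, against 7.27 and 7.08 in Ctl. Both shPW1 arrays were below both Ctl arrays, and Fos fell by 0.44 on the log2 scale (95% confidence interval -0.67 to -0.22, adjusted p = 0.0489), to 0.735 of its Ctl level. Subtracting the median of each array ended this call with an adjusted p = 0.056. Fosb read 7.35 and 7.38 in shPW1 and 7.58 and 7.34 in Ctl, which overlap, and its difference was -0.09 (adjusted p = 0.603).

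None of the 3 Jun genes was called, where 4.93% of all genes tested were called higher and 4.35% lower. Jun, the usual partner of Fos, read 10.10 and 10.21 in shPW1 AdmMABs and 9.97 and 9.91 in Ctl AdmMABs. Its groups did not overlap, and the difference was 0.21 (adjusted p = 0.14). Junb differed by 0.14, Jund by -0.08 and the stress-induced factor Atf3 by 0.05. The median over the 8 genes for Fos, Jun and Atf3 was 0.09.

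The Egr factors, zinc finger proteins that serum and growth factors induce within minutes, were close to equal between the groups. Egr1 read 9.12 and 9.02 in shPW1 AdmMABs and 9.15 and 9.11 in Ctl AdmMABs, with overlap and a difference of -0.06 (95% confidence interval -0.23 to 0.11). Egr2 read 8.32 and 8.31 in shPW1 and 8.28 and 8.26 in Ctl, a difference of 0.04 (95% confidence interval -0.11 to 0.19). Egr3 read 7.33 and 7.38 in shPW1 and 7.33 and 7.36 in Ctl, a difference of 0.01 (95% confidence interval -0.14 to 0.16). None of these 3 genes was called, where limma called 4.93% of all genes tested higher and 4.35% lower. At an unadjusted p under 0.05 the count was 0, against 13.9% of all genes in each direction. By the methods' analysis of variance it was also 0, against 6.35% higher and 5.55% lower.

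The Ier genes, Phlda1 and Errfi1, which are induced early after growth factor or stress signals, had the highest median difference of the roles, 0.72. All 5 had both shPW1 arrays above both Ctl arrays, as had 27% of all genes tested. Of the 5 genes 3 were called higher, against 4.93% of all genes tested. Ier3, an early response gene linked to cell survival, read 9.45 and 9.39 in shPW1 AdmMABs and 8.34 and 8.41 in Ctl AdmMABs. The groups were far apart, by 1.04 (95% confidence interval 0.87 to 1.21) or 2.06-fold (adjusted p = 0.00658). Phlda1, which encodes a pleckstrin homology-like protein, read 10.05 and 10.00 in shPW1 and 9.23 and 9.16 in Ctl. Ier5 read 8.90 and 8.96 in shPW1 and 8.23 and 8.20 in Ctl. Both genes were higher in both shPW1 arrays, Phlda1 by 0.83 (95% confidence interval 0.67 to 1.00, adjusted p = 0.00845) and Ier5 by 0.72 (95% confidence interval 0.56 to 0.87, adjusted p = 0.01). Errfi1, an inhibitor of the EGF receptor, read 11.11 and 11.07 in shPW1 and 10.83 and 10.81 in Ctl. Its difference of 0.27 was just outside the threshold (adjusted p = 0.0585) and was called by the methods' analysis of variance. Ier2 read 8.05 and 8.06 in shPW1 and 7.78 and 7.87 in Ctl, a difference of 0.23 (adjusted p = 0.101).

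The promoters of Egr2, not called, and Ier3, called higher, are shown for their motifs. Among the 43 genes searched, Egr2 is the other gene with a CArG box in its windows, and Ier3 holds a match to the NF-kappaB site. Sequence outside the windows of 250 bases before and 50 after each start, and the 10 genes without a window, were not searched. Both lie on the plus strand, and the 250 bases before the start are printed with the match in capitals. The Egr2 window (chr10:67537619-67537868) is 1 of several that RefSeq gives for this gene. Its CArG box begins at -72 from this start and at -73 and -133 from others, and a further window holds a different box.
Egr2: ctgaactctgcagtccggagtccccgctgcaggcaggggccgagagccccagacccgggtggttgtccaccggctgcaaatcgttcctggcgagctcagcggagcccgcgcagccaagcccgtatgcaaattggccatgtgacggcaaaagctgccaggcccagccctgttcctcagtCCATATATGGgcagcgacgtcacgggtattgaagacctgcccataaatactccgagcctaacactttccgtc
The Ier3 window (chr17:35821463-35821712) holds its match at -92.
Ier3: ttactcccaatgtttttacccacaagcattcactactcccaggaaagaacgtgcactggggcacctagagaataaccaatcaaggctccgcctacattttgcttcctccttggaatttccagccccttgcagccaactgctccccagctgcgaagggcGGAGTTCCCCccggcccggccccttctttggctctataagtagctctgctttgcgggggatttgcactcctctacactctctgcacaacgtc
A match to the NF-kappaB site was found in 4.51% of all windows and in 7 of the 43 genes: Fosl2, Ier3 and Rras, called higher, Fos, called lower, and Fosb, Rasa3 and Rasgrp2, not called. Shares are again per window and counts per gene, which are unlike measures. The AP-1 site TGANTCA was found in 7.81% of windows and in 0 of the 43 genes. The motif described for PW1, which reads AGT, any 2 bases, C, any 3 bases and TGGCT, was found in 0.484% of windows and in 1 of the 43 genes, Map2k1, which was not called.

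Growth factors and their receptors, which feed the cascade, moved in both directions. Of 33 measured 6 were higher (18.2%) and 4 were lower (12.1%), against 4.93% and 4.35% of all genes tested. The median difference was 0.04. Fgf7, a fibroblast growth factor that acts on epithelium, read 11.66 and 11.65 in shPW1 AdmMABs, against 10.50 and 10.44 in Ctl AdmMABs (difference 1.18, adjusted p = 0.00504). Fgf10 of the same subfamily read 5.42 and 5.54 in shPW1, against 4.20 and 4.41 in Ctl (difference 1.17, adjusted p = 0.00994), and was dim in Ctl. Hgf, the ligand of Met, read 8.02 and 8.19 in shPW1, against 9.29 and 9.30 in Ctl. It fell by 1.19 (adjusted p = 0.00691), and Pdgfrb fell by 0.45 (adjusted p = 0.0225). A pair of EGF receptor ligands, named after their values were seen, were also higher: Hbegf read 9.88 and 9.90 in shPW1 and 8.69 and 8.80 in Ctl, with a difference of 1.14 (adjusted p = 0.00611). Ereg read 9.48 and 9.54 in shPW1 and 8.68 and 8.65 in Ctl, with a difference of 0.85 (adjusted p = 0.00748). Among the receptors Met and Fgfr2 were called higher, whereas Pdgfrb and Pdgfra were called lower. Pdgfra differed by -0.38 (adjusted p = 0.0354 by limma), and the ligand gene Pdgfc, also called lower, by -0.39 (adjusted p = 0.0304). Apart from Pdgfrb these were again named after their values were seen. Met, the receptor of Hgf, read 10.33 and 10.41 in shPW1 and 9.63 and 9.61 in Ctl, a difference of 0.75 (adjusted p = 0.00999). Fgfr2, a receptor gene for Fgf7 and Fgf10, read 6.66 and 6.87 in shPW1 and 6.02 and 6.08 in Ctl, a difference of 0.72 (adjusted p = 0.022). Egfr differed by 0.11 and Fgfr1 by 0.21, and neither was called.

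**Figure D3:**
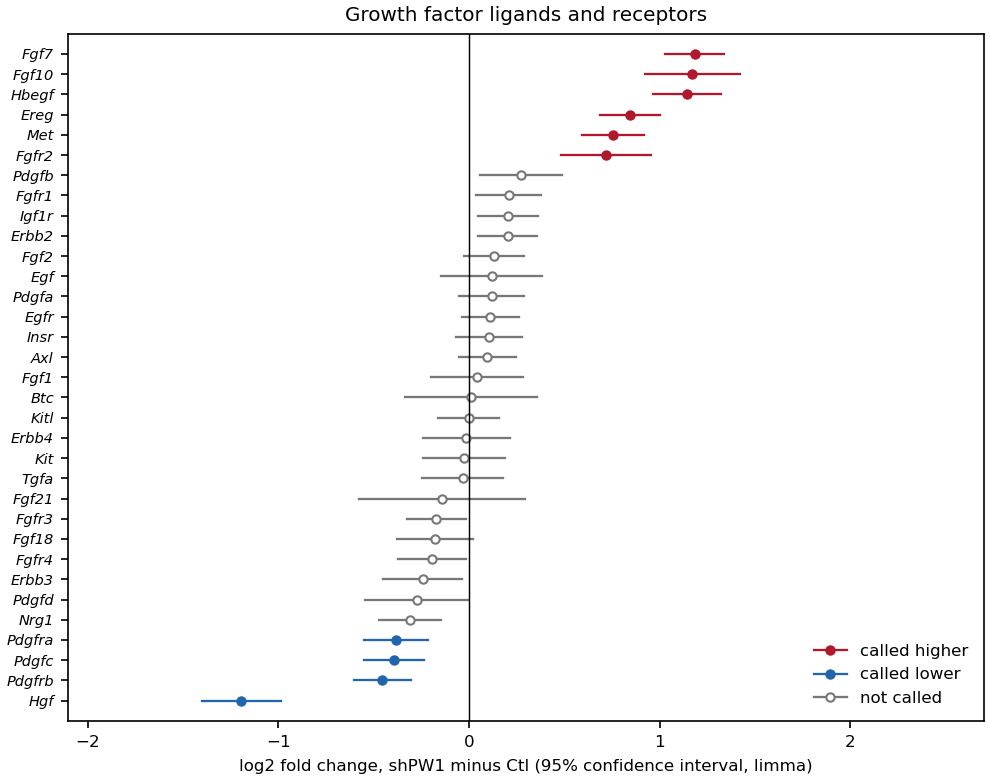
Difference in log2 expression, shPW1 minus Ctl (horizontal axis), for 33 growth factor ligands and receptors (vertical axis), with bars for the 95% confidence interval by limma over 2 shPW1 and 2 Ctl arrays. Red points are the 6 genes called higher, led by Fgf7 at 1.18, blue points are the 4 called lower, with Hgf lowest at -1.19, and open points were not called.

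Adaptors, scaffolds and other regulators between receptor and ERK stayed near the background of the array. Of 27 measured 1 was higher (3.7%) and 1 was lower (3.7%), against 4.93% and 4.35% of all genes tested. The median was -0.01. The higher gene was Peak1, a pseudokinase scaffold (8.60 and 8.64 in shPW1, 8.30 and 8.15 in Ctl, adjusted p = 0.0485), and the lower gene was Dab2ip, a GTPase activating protein for Ras (6.61 and 6.62 in shPW1, 7.10 and 6.94 in Ctl, adjusted p = 0.0436). The adaptor Grb2 differed by -0.01.

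Factors that carry the ERK signal to promoters, and genes induced early or late by it, were more often higher than lower. Over all genes tested 4.93% were called higher and 4.35% lower. These lists too were chosen with earlier results of the data known. Of 8 ternary complex factors, Ets proteins, Srf and its cofactors, 3 were higher (37.5%) and 0 lower (median 0.14). Srf, the serum response factor that binds CArG boxes, read 9.45 and 9.36 in shPW1 AdmMABs and 9.03 and 8.90 in Ctl AdmMABs, a difference of 0.44 (adjusted p = 0.0375). Ets1 was higher by 0.42 (adjusted p = 0.0296). Among 22 further immediate early genes 6 were higher (27.3%) and 2 were lower (9.09%), with a median of 0.12. Maff, a small Maf factor, read 7.66 and 7.57 in shPW1 and 6.74 and 6.78 in Ctl, and was higher by 0.86 (adjusted p = 0.00841). The kinase gene Plk3 was higher by 0.56 (adjusted p = 0.0236). Rgs2, an inhibitor of G protein signalling, read 5.21 and 5.56 in shPW1 and 6.40 and 6.28 in Ctl, and fell by 0.96 (adjusted p = 0.0267). The small GTPase gene Rhob fell by 0.49 (adjusted p = 0.0283). Of 13 delayed ERK targets 5 were higher (38.5%) and 1 was lower (7.69%), with a median of 0.21. Plaur, the urokinase receptor, read 10.09 and 10.05 in shPW1 and 9.09 and 9.01 in Ctl, a difference of 1.02 (adjusted p = 0.00647). The cytokine gene Lif was higher by 0.65 (adjusted p = 0.0137), and the ephrin receptor gene Epha4 fell by 0.35 (adjusted p = 0.0449).

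Stress pathways that share targets with ERK were described beside the module. Of 22 genes of the p38 and JNK cascades and other stress kinases 1 was higher (4.55%) and 2 were lower (9.09%). Over all genes tested the shares were 4.93% and 4.35%. The median over the 22 genes was -0.05. Gadd45b was higher by 0.55 (9.00 and 9.09 in shPW1, 8.50 and 8.48 in Ctl, adjusted p = 0.0183 by limma). Mapk12, a p38 kinase of muscle, fell by 0.60 (7.53 and 7.64 in shPW1, 8.24 and 8.11 in Ctl, adjusted p = 0.0237), and Mapkapk3 fell by 0.43. Of 9 heat shock genes limma called 0 in either direction, as did the methods' analysis of variance, while 2 were higher and 0 lower at an unadjusted p under 0.05, where 13.9% of all genes were higher. Their median difference was 0.01, and their summed linear level was 31359 and 31495 in shPW1 and 29632 and 29541 in Ctl.

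**Figure D4:**
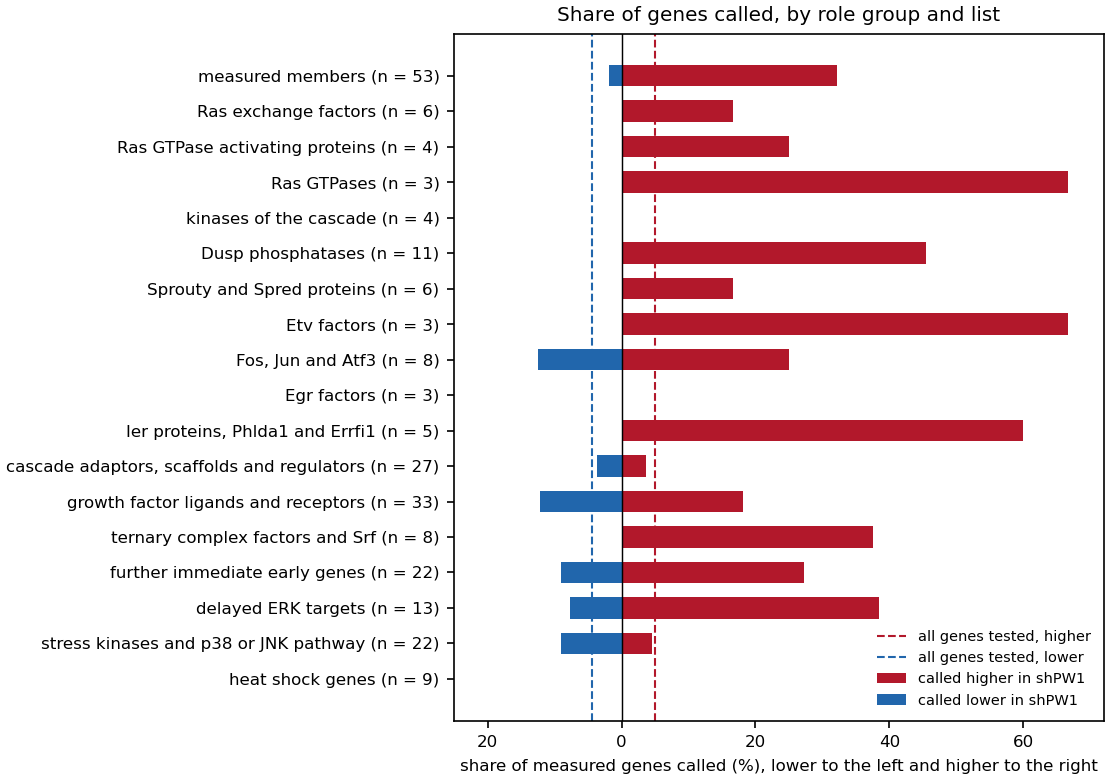
Share of the measured genes of each role or list that limma called higher (red, to the right) or lower (blue, to the left) in shPW1 AdmMABs, in percent (horizontal axis), with the number measured beside each name. Dashed lines mark the shares over all genes tested, 4.93% higher and 4.35% lower; the bar of the 53 measured genes of the module reaches 32.1% to the right and 1.89% to the left, and kinases, Egr factors and heat shock genes have no bar.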

How the data were processed

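Total RNA of 2 shPW1 and 2 Ctl extractions was hybridized to Affymetrix Mouse Gene 1.0 ST arrays. The log2 expression values deposited by the authors came from RMA in Partek (version 6.4 by the submitters' processing notes, an earlier one in the methods), so background correction, normalization and summarization were theirs. The table has 35556 rows. Those annotated with a single gene symbol (21789) entered the test, and those with several (1621) or no symbol (12146) did not. shPW1 was set against Ctl in limma 3.58.1 (lmFit, eBayes; R 4.3.3; 2 residual and 2.72 prior degrees of freedom). The two-sided p-values were adjusted over the 21789 rows after Benjamini and Hochberg, and a gene was called under 0.05. An exact permutation test of 2 arrays against 2 cannot give a p below 0.333 and was not used. The number of arrays limits the precision, and no scanner files or detection calls were used. The script was tested on simulated data. Summed linear levels add the antilog values of a list.

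The genes of the module and every other list were chosen with earlier results of these data known. The text names all genes of the module, up to 2 called genes in each direction from each other list, by size of change, and Peg3; the other genes it names outside the module were chosen as markers or as known members of a list, or after their values were seen. As alternatives, dim probe sets were left out, every row was tested, arrays were quantile normalized again or centred on their medians, the prior was trended and robust, probe sets of a gene were averaged, the analysis of variance of the methods was run, the replicate number was added as a block, and single arrays were omitted.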

Additional observations from a re-analysis of the deposited data

How the results depend on the processing

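The 17 genes of the module called higher and the 1 called lower kept their sign under every alternative run, but the counts of calls depend on the test. Leaving out each array in turn gave 0 genes of the module and 0 probe sets called in either direction, with Peg3 between -2.47 and -2.21 and, among called genes, Rasgrp3 between 1.66 and 2.15 and Fos between -0.54 and -0.35. Testing all rows left 36 probe sets higher, 50 lower and 0 genes of the module in either direction (adjusted p between 0.0525 and 0.14 for the 18 genes). The methods' analysis of variance after Benjamini-Hochberg adjustment left 1 probe set higher, 1 lower and 0 genes of the module in either direction, with Peg3 at -2.34 and an adjusted p = 0.105. The main test called 1075 probe sets higher and 908 lower. Without dim probe sets these were 1953 and 1680, with a trended robust prior 2735 and 1978, and the analysis of variance at its own thresholds gave 1383 and 1165. With array medians subtracted 1637 were higher and 698 lower, so that 70.1% of calls were higher in shPW1, against 54.2% before, and in the module 20 genes were higher and 0 lower. The fit with the replicate block gave 256 and 258 probe sets and 9 and 0 genes of the module; it lost Dusp2, Dusp4, Etv5, Fos, Fosl1, Fosl2, Nras, Rasa1 and Spry4. The replicates share only a number (correlation of their deviations -0.105), and a block with the numbers crossed, added after the data were seen, gave 213 and 224 probe sets and 7 and 0 genes of the module.

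Genes that changed sign were all uncalled, and their differences were near 0 in the main test, though not in every alternative. After a second quantile normalization Rasgrp2 stood at 0.0011, Sos2 at 4.1e-05, Dusp1 at -0.016 and Spry1 at 0.0090. After subtraction of medians Rasgrp2 stood at 0.028, Sos2 at 0.060, Rasa3 at 0.061, Nf1 at 0.042, Map2k1 at 0.045, Dusp8 at 0.0032, Dusp10 at 0.063, Spry1 at 0.027, Spred1 at 0.060 and Egr1 at 0.0059. The mean of its probe sets put Dusp8 at 0.14. With an array left out the ranges were -0.20 to 0.13 for Rasgrp2, -0.23 to 0.074 for Rasgrp4, -0.043 to 0.036 for Sos2, -0.066 to 0.16 for Rasa2, -0.047 to 0.040 for Rasa3, -0.093 to 0.048 for Nf1, -0.016 to 0.14 for Braf, -0.048 to 0.0097 for Map2k1, -0.13 to 0.0054 for Dusp8, -0.051 to 0.048 for Dusp10, -0.18 to 0.10 for Spry1, -0.013 to 0.0032 for Spred1, -0.035 to 0.13 for Atf3, -0.21 to 0.027 for Fosb and -0.013 to 0.032 for Egr3. The cause of these changes was not tested.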
